A study of Mus musculus with 8 samples.

Results

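Bcl6, its paralogue Bcl6b, the related repressor Zbtb16 and 6 corepressor genes (Bcor, Bcorl1, Ncor1, Hdac3, Tbl1x and Mta3) were followed in mouse liver. The genes were found on the array through the RefSeq accession of each probe. All 9 were present, with 19 of the 56605 probes other than controls, and all 19 probes were well above background on all 8 arrays. The 9 genes are read against 26551 genes and unnamed transcripts tested. Whole liver was taken at 10 to 11 weeks of age from 4 groups, each with 2 arrays: male and female mice with a liver-specific Bcl-6 deficiency (knockout), and male and female wild-type mice. The question in the study's title is how Bcl6 bears on the difference between the sexes in liver. The labels name neither the Cre driver nor the deleted exons, nor whether each array stands for an animal of its own, so the p-values cover the spread between arrays, which may be technical.

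Bcl6 is a zinc finger repressor that binds DNA through its zinc fingers and recruits corepressors through other parts of the protein. Its BTB domain binds BCOR and NCOR1. The NCOR1 complex carries the histone deacetylase HDAC3 and the TBL1X subunit, BCOR belongs to a Polycomb complex, and MTA3 is a subunit of the NuRD deacetylase complex. In liver, Bcl6 is known as a gene with higher levels in males, lowered by growth hormone through STAT5, and its protein can bind DNA sites that resemble those of STAT5.

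The windows before the start sites are shown because Bcl6 and STAT5 recognise related letters. TTCNNNGAA is the STAT5-type motif, which reads the same on both strands, and TTCCTAGAA is a Bcl6-type motif contained in it. Among 32851 mouse promoter windows of 250 bases, 7.02% held TTCNNNGAA and 0.347% held TTCCTAGAA on either strand. RefSeq (GRCm38.p6) windows were used for 5 of the 9 genes, which are Bcl6, Bcor, Bcorl1, Ncor1 and Tbl1x. The 2 listed starts of Bcl6 and start 1 of the 2 overlapping Bcor windows are printed 5′ to 3′ on the gene's strand, with matches to TTCNNNGAA in capitals.
Bcl6 start 1, chr16:23988853-23989102, minus strand: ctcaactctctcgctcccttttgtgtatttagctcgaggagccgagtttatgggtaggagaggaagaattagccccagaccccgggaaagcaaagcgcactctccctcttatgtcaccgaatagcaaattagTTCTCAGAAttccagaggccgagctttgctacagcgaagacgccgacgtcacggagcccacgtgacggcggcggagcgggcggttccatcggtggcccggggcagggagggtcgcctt
Bcl6 start 2, chr16:23981284-23981533, minus strand: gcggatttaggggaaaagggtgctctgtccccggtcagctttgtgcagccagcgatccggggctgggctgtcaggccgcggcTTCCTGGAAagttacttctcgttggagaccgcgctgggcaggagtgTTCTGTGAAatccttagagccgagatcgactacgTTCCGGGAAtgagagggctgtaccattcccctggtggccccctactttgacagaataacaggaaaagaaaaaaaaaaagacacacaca
Bcor start 1, chrX:12160347-12160596, minus strand: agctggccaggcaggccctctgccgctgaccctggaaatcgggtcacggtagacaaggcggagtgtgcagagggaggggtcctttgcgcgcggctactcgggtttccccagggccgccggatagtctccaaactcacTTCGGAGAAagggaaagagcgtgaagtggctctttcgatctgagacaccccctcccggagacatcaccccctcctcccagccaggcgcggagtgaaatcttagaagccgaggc
The first Bcl6 window held 1 match, beginning 118 bases before the start, and the other held 3, beginning 168, 122 and 88 bases before it. The Bcor window held 1 match, beginning 113 bases before its start. The windows of Bcorl1, Ncor1 and Tbl1x held 0 matches. TTCCTAGAA was in 0 of the windows of these 5 genes. A match is a run of letters and says nothing of binding in these livers.

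All levels below are log2 processed signals minus the 75th percentile of the same array, so a level is read against the rest of its own array and not against another gene's probe. Differences are knockout minus wild type on the log2 scale with the SE of limma's fit. Adjusted p is limma's with Benjamini-Hochberg adjustment over the 26551. For the other probes of a gene, differences and adjusted p come from a separate fit of all 33580 kept probes, adjusted over those. A gene is called past an adjusted p of 0.05. All 8 arrays lay on 1 slide, females in one row and males in the other, which means that sex and row cannot be told apart. Between 33603 and 36377 of 59305 spots were well above background on an array, the 75th percentile of the signal was 179.9 to 218.7. Precision is limited by the 2 arrays per group. The 10 hepatocyte markers tested were well above background on all 8 arrays. In bulk liver, fewer cells of a type and less RNA per cell cannot be told apart.

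Over both sexes, 4 of the 9 genes differed between genotypes. Zbtb16, Ncor1 and Tbl1x were lower in the arrays labelled knockout and Bcor was higher. Among all features, 10.1% were called higher and 9.65% lower in that comparison, 19.8% in all. In males 3 of the 9 were called (Bcor higher, Zbtb16 and Tbl1x lower), against 10.6% of all features (6.01% higher and 4.56% lower). In females 1 was called (Zbtb16 lower), against 5.96% (3.48% higher and 2.49% lower). Arrays of the 2 genotypes did not overlap for 6 of the 9 in males, 3 higher and 3 lower, where 28.9% of all features were higher and 32.7% lower in this way. In females they did not overlap for 2 higher and 4 lower, against 27.8% and 27.7%. Over all 8 arrays 1 gene lay higher and 3 lower without overlap, against 12.3% and 12.7%. The plot of levels shows each gene on each array.

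**Figure D1:**
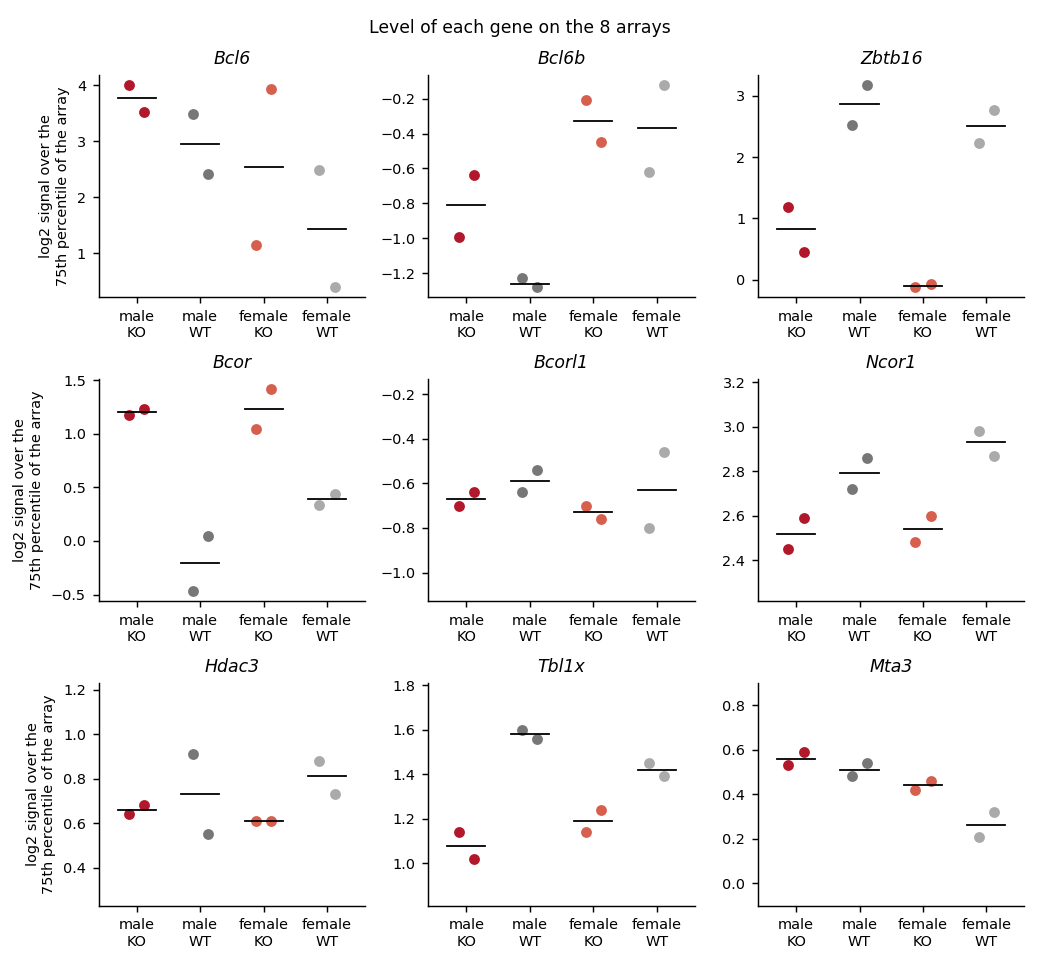
Level of each of the 9 genes on the 8 arrays (log2 signal over the 75th percentile of the array), by group (KO, knockout, and WT, wild type, of each sex): each point is 1 array and each line the mean of 2, with an axis of its own per gene. Zbtb16 lies lower in all 4 knockout arrays and Bcor higher, while the Bcl6 arrays spread from 0.39 to 4.01.

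The Bcl6 transcript, measured by 1 probe, had no lower level in livers labelled knockout. Its levels were 4.01 and 3.53 in knockout males, 3.48 and 2.41 in wild-type males, 1.15 and 3.93 in knockout females, and 2.48 and 0.39 in wild-type females. The group means ran from 3.77 ± 0.34 in knockout males over 2.95 ± 0.76 in wild-type males and 2.54 ± 1.97 in knockout females to 1.43 ± 1.48 in wild-type females (SD, n = 2 each). The female groups overlapped, and no neighbours in this order differed by more than the larger of their SDs except knockout and wild-type males, by 0.82 against 0.76. Knockout males stood 0.82 ± 1.06 (SE) above wild-type males (adjusted p = 0.67). Knockout females stood 1.11 ± 1.06 above wild-type females (adjusted p = 0.557), and the 95% interval over both sexes was -0.86 to 2.79. Males minus females gave 1.23 in knockout (adjusted p = 0.933) and 1.51 in wild type (adjusted p = 0.502). Whether the probe falls within the deleted exons is unknown here, so these values check no genotype label. Leaving out knockout female 2 turned the female difference to -0.29.

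The arrays of a group disagreed more for Bcl6 than for most genes. The 2 knockout female arrays lay 2.79 apart for Bcl6 and the 2 wild-type female arrays 2.09 apart. The gap of 2.79 exceeded the largest gap of 99.4% of 26499 genes, whose median was 0.38. The other 8 genes had largest gaps of 0.10 (Mta3) to 0.72 (Zbtb16). Pearson r with Bcl6 over the 8 arrays, which share the group differences, was highest for Gps1 (0.952), Gm29926 (0.946), Tmie (0.938), Slc19a2 (0.934) and Ccdc124 (0.929) among 13965 genes. With deviations from the group means, which leave 4 degrees of freedom, it was highest for Ric1 (0.994), Khdrbs3 (0.992), Syngr1 (0.992), Slc22a5 (0.991) and Gdf2 (0.991).

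Bcl6b, the closest relative of Bcl6 and a gene active in endothelial cells, did not pass the test between genotypes. Its level was -0.99 and -0.64 in knockout males, -1.23 and -1.28 in wild-type males, -0.21 and -0.45 in knockout females, and -0.62 and -0.12 in wild-type females. Knockout minus wild type was 0.44 ± 0.21 in males (adjusted p = 0.239) and 0.04 ± 0.21 in females (adjusted p = 0.931). Male arrays lay below female ones in each genotype: males minus females gave -0.48 in knockout (adjusted p = 0.853) and -0.89 in wild type (adjusted p = 0.119). The sum of the 12 endothelial markers was 109 to 111 in knockout males, 85.6 to 88.1 in wild-type males, 111 to 116 in knockout females and 104 to 109 in wild-type females. Its part in the Bcl6b values was not tested. Fblim1 (r = 0.969), Mapk12 (0.967) and Cygb (0.964) followed Bcl6b most closely over the 8 arrays, then Socs5 (0.958) and Erbb2 (0.951).

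Zbtb16 (PLZF), a BTB zinc finger repressor known in natural killer T cells and as a glucocorticoid-induced gene, had the largest called change among the 9. Its level was 1.18 and 0.46 in knockout males, 2.53 and 3.18 in wild-type males, -0.12 and -0.07 in knockout females, and 2.23 and 2.77 in wild-type females. The 4 knockout arrays lay below the 4 wild-type arrays. Zbtb16 fell by 2.03 on the log2 scale in males (SE 0.33, 4.1-fold, adjusted p = 0.0169) and by 2.59 in females (SE 0.33, 6.04-fold, adjusted p = 0.0124). Over both sexes it fell by 2.31 (SE 0.23, 4.97-fold, adjusted p = 0.00235). The interaction was 0.56 ± 0.47 (adjusted p = 0.802).

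The other Zbtb16 probe fell too. It read -2.54 and -2.81 in knockout males, -1.08 and -0.67 in wild-type males, -2.31 and -2.53 in knockout females, and -1.01 and -0.88 in wild-type females, a fall by 1.80 in males (adjusted p = 0.00346) and by 1.48 in females (adjusted p = 0.011). Both probes put knockout below wild type, but they disagreed on sex in knockout: knockout males lay above knockout females on the first probe and below them on the other. The 10 tested T and NK markers (2 others were not tested) summed to 18.8 to 25.8 in knockout males, 24.9 to 27.3 in wild-type males, 14.0 to 15.7 in knockout females and 14.5 to 24.4 in wild-type females. The sums overlapped between genotypes in each sex, and Cd4 gave most of each sum. Of the 10 markers, 1 was called higher over both sexes (Cd2, 0.60, adjusted p = 0.0363) and 0 lower. The shares over all features were 10.1% and 9.65%, and the median of the 10 markers was 0.24. Their part in the Zbtb16 values was not tested. Arrays were left out in turn only for the first Zbtb16 probe. Its call in males was lost without knockout male 2 (-1.68) or wild-type male 2 (-1.71). In females its call was lost without knockout female 1 (-2.57) or 2 (-2.62). The fall of that probe over both sexes stayed past the threshold in all 8 such fits, at -2.49 to -2.13.

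Bcor, the BTB-binding corepressor of Bcl6 that belongs to a Polycomb complex, rose. The probe with the higher mean is matched to a non-coding RefSeq transcript of the gene. Its level was 1.18 and 1.23 in knockout males, -0.47 and 0.05 in wild-type males, 1.05 and 1.42 in knockout females, and 0.34 and 0.44 in wild-type females. All 4 knockout arrays lay above all 4 wild-type arrays. Bcor rose by 1.41 ± 0.20 in males (2.66-fold, adjusted p = 0.0121) and by 1.13 ± 0.14 over both sexes (2.18-fold, adjusted p = 0.00509), and in females the difference was 0.84 ± 0.20 (adjusted p = 0.0712).

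The other Bcor probe, matched to a coding transcript, read 0.06 and 0.32 in knockout males, -0.52 and -0.79 in wild-type males, 0.10 and 0.45 in knockout females, and -0.41 and -0.44 in wild-type females. It rose by 0.85 ± 0.17 in males (adjusted p = 0.0324) and by 0.77 ± 0.12 over both sexes (adjusted p = 0.0098). In females its difference of 0.70 ± 0.17 was not called (adjusted p = 0.0734). Arrays were left out in turn only for the first Bcor probe, the one with the higher mean. Its call in males was lost without knockout male 1 or without knockout male 2, where it rose by 1.44 and 1.39. The call of that probe over both sexes stayed in all 8 such fits, at 1.0 to 1.26. Over the 8 arrays Bcor followed Gm34589 (r = 0.995), Trem2 (0.992), Ccdc12 (0.988) and Dmpk (0.986) closely. The summed B cell markers, like Bcor, were higher in knockout than in wild type in each sex. The 9 tested B and plasma cell markers summed to 3.01 to 3.04 in knockout males and 1.51 to 1.97 in wild-type males. In females the sums were 3.03 to 3.40 in knockout and 1.82 to 1.89 in wild type. Of the 9 markers, 5 were called higher and 0 lower over both sexes, against 10.1% and 9.65% of all features. The smallest difference was that of Pax5, at 0.05. Of the 9, 6 were well above background on all 8 arrays. Within wild-type males and within knockout females, the array with the higher sum had the lower Bcor level. Within knockout males and within wild-type females it had the higher Bcor level. Their part in the Bcor difference was not tested.

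Bcorl1, the relative of Bcor, did not pass the test. It read -0.70 and -0.64 in knockout males, -0.64 and -0.54 in wild-type males, -0.70 and -0.76 in knockout females, and -0.80 and -0.46 in wild-type females. The difference over both sexes was -0.09 ± 0.10 with a 95% interval of -0.33 to 0.14 (adjusted p = 0.531). The plot of probe differences shows both sexes for each probe.

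**Figure D2:**
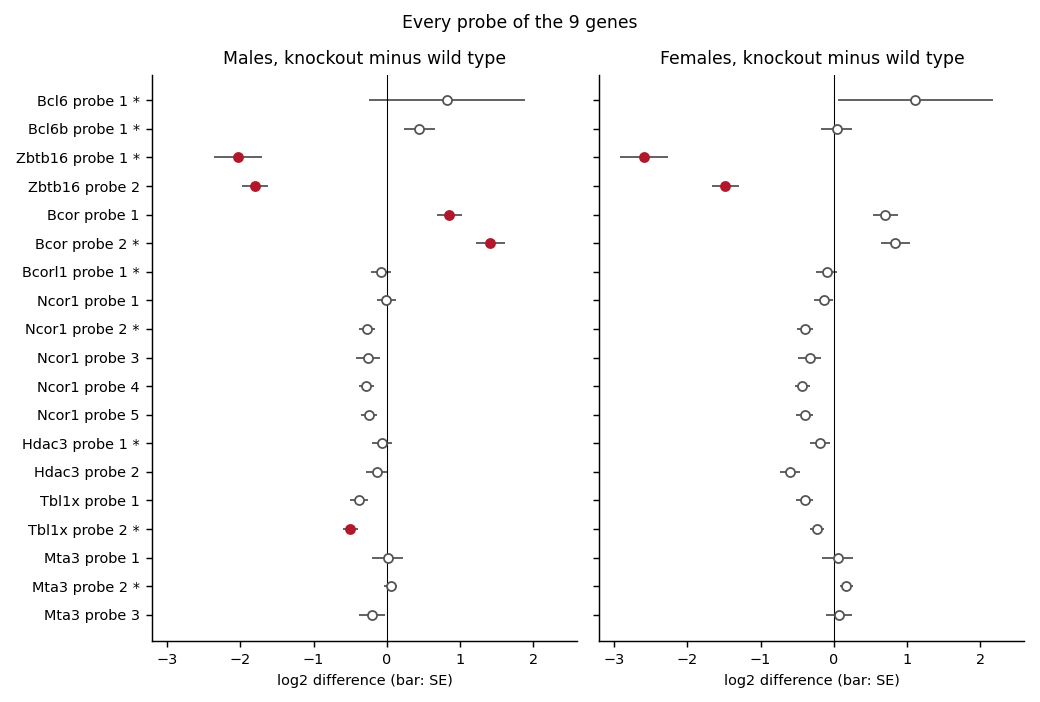
Log2 difference, knockout minus wild type, with its SE for each of the 19 probes of the 9 genes, in males and in females, filled where the adjusted p was under 0.05, with an asterisk at the probe that stands for its gene. Both Zbtb16 probes lie left of 0 and both Bcor probes right of it, while the Bcl6 bar spans 0 in males and nearly reaches it in females.

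In the NCOR complex, the scaffold Ncor1 and the subunit Tbl1x were lower, by far less than Zbtb16. Ncor1 read 2.45 and 2.59 in knockout males, 2.72 and 2.86 in wild-type males, 2.48 and 2.6 in knockout females, and 2.98 and 2.87 in wild-type females. The groups did not overlap in either sex. Ncor1 fell by 0.33 on the log2 scale over both sexes (SE 0.08, 1.26-fold, adjusted p = 0.0384), with -0.27 in males (adjusted p = 0.203) and -0.39 in females (adjusted p = 0.107). Its 4 other probes gave -0.35 (adjusted p = 0.019), -0.33 (0.0406), -0.30 (0.127) and -0.07 (0.603) over both sexes. For the probe that stands for Ncor1, the call over both sexes was lost whichever array was left out, at -0.36 to -0.29.

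Tbl1x, a WD-repeat subunit that sits with Ncor1 and Hdac3, read 1.14 and 1.02 in knockout males, 1.60 and 1.56 in wild-type males, 1.14 and 1.24 in knockout females, and 1.45 and 1.39 in wild-type females. The arrays did not overlap between genotypes. It fell by 0.50 in males (SE 0.10, 1.42-fold, adjusted p = 0.0305) and by 0.37 over both sexes (SE 0.07, 1.29-fold, adjusted p = 0.0186), with -0.23 ± 0.10 in females (adjusted p = 0.223). Its other probe gave -0.39 ± 0.08 over both sexes (adjusted p = 0.0254) and -0.38 in males (adjusted p = 0.103). For the probe that stands for Tbl1x, the male call was kept in 2 of the 8 fits with an array left out, at -0.56 to -0.44. Its call over both sexes was kept in 3 of 8, at -0.40 to -0.34. That call was lost without either knockout male, without either wild-type male and without knockout female 1.

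Hdac3, the deacetylase of this complex, read 0.64 and 0.68 in knockout males, 0.91 and 0.55 in wild-type males, 0.61 and 0.61 in knockout females, and 0.88 and 0.73 in wild-type females. Its difference over both sexes was -0.13 ± 0.10, with a 95% interval of -0.38 to 0.12 (adjusted p = 0.393). Its other probe gave -0.37 (adjusted p = 0.0523). Mta3, the NuRD subunit, read 0.53 and 0.59 in knockout males, 0.48 and 0.54 in wild-type males, 0.42 and 0.46 in knockout females, and 0.21 and 0.32 in wild-type females. The male groups overlapped on this probe and the female ones did not. The Mta3 difference over both sexes was 0.11 ± 0.07, with a 95% interval of -0.05 to 0.27 (adjusted p = 0.28). Its other probes gave 0.03 (adjusted p = 0.903) and -0.07 (0.726) over both sexes, and on each of them the female groups overlapped.

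Between the sexes, 0 of the 9 genes were called by limma, in knockout (0.0716% of all features called) or in wild type (0.911%). The interaction called 0 of 9 too (0.2% of all features), with adjusted p of 0.675 to 0.99. At an unadjusted p under 0.05 there were 1 of the 9 in knockout, 3 in wild type and 0 for the interaction, against 5.99%, 17.6% and 8.49% of all features. In knockout, the male minus female difference of Zbtb16 was 0.92 ± 0.33 (adjusted p = 0.772), which its other probe turned round.

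Other genes of these complexes gave few calls over both sexes, where 19.8% of all features were called and the median of all features was -0.0093. The median of the 9 genes was -0.09. By limma's test, 0 of 9 other BCOR complex subunits passed (1 at an unadjusted p under 0.05). Of 11 NuRD subunits tested, 1 fell. That was Rbbp4, a histone-binding subunit, at 4.39 and 4.39 in knockout males, 5.20 and 5.28 in wild-type males, 4.5 and 4.37 in knockout females, and 4.58 and 5.12 in wild-type females, a fall by 0.63 (SE 0.13, adjusted p = 0.0227). Of 13 other corepressors and histone deacetylases 1 rose, the deacetylase gene Hdac11, by 0.79 ± 0.12 (adjusted p = 0.00822). Hdac1, a deacetylase of NuRD, gave -0.22 (adjusted p = 0.243), and Hdac2 was not tested. The medians of these 3 lists over both sexes were -0.16, -0.15 and 0.08.

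Of 39 other BTB zinc finger genes tested, 3 rose and 7 fell over both sexes, with a median of -0.19. Among all features, 10.1% were called higher and 9.65% lower. Zbtb4 rose by 0.65 ± 0.10 (adjusted p = 0.00824) and Hic1 and Hic2, relatives that also repress transcription, by 0.48 and 0.63. Zbtb2 fell by 0.54 (adjusted p = 0.00667), Zbtb7a by 0.54 and Zbtb20, a repressor known in hepatocytes, by 0.36. Zbtb20 was 3.52 and 3.48 in knockout males, 4.24 and 4.15 in wild-type males, 3.5 and 3.6 in knockout females, and 3.52 and 3.65 in wild-type females. Its fall was by 0.70 in males (adjusted p = 0.0125), and in females the difference was -0.03 (adjusted p = 0.863). The interaction for Zbtb20 was not called, at -0.66 ± 0.14 (limma, adjusted p = 0.296).

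Of 17 genes known to be repressed by Bcl6 in lymphocytes that were tested, 4 rose and 0 fell over both sexes. The shares over all features were 10.1% and 9.65%, and the median of the 17 was 0.06. Bcl2l1, an inhibitor of apoptosis, rose by 0.80 ± 0.11 (adjusted p = 0.00572), Id2 by 0.76 (adjusted p = 0.0336) and the sphingosine receptor gene S1pr1 by 0.66 (adjusted p = 0.0231). Ccr6, a chemokine receptor of lymphocytes, rose by 1.36 ± 0.13 (adjusted p = 0.00187). In wild-type males Ccr6 was not well above background on either array, which makes its rise there at least 2.59-fold, a bound from the lowest signal well above background on each array. It was well above background on 6 of the 8 arrays, and the summed B cell markers given with Bcor were higher in the 4 knockout arrays than in the 4 wild-type arrays. Their part in these rises was not tested.

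Among 13 growth hormone and STAT5 genes, 4 rose and 0 fell over both sexes, with a median of 0.32. The shares over all features were 10.1% higher and 9.65% lower. Ghr, the growth hormone receptor, read 8.09 and 8.03 in knockout males, 5.39 and 5.29 in wild-type males, 7.99 and 7.99 in knockout females, and 4.81 and 4.95 in wild-type females, a rise by 2.91 ± 0.07 (adjusted p = 3.31e-05). Prlr, the prolactin receptor, rose by 2.90 ± 0.13 (adjusted p = 0.000141) and Socs2, a STAT5-induced inhibitor, by 1.93 ± 0.42 (adjusted p = 0.0265). Cux2, a female-biased factor in liver, rose at least 111-fold in males, where neither wild-type array was well above background.

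Of 20 fasting and glucocorticoid response genes, 4 rose and 5 fell over both sexes, against 10.1% and 9.65% of all features. Lpin1, a phosphatidate phosphatase that fell by 2.37 ± 0.30 (adjusted p = 0.00488), was also among the 5 genes whose levels followed Zbtb16 most closely over the 8 arrays (r = 0.983), with Pla2g4b (0.99), Rapgef6 (0.988), Paip1 (0.987) and Lcp1 (0.984). Sgk1, a kinase gene induced by glucocorticoids, rose by 1.36 ± 0.21 (adjusted p = 0.00894), and the glucocorticoid-induced Tsc22d3 fell by 1.35 (adjusted p = 0.0119). Of 15 clock and output genes 1 rose and 4 fell over both sexes, against the same shares of all features. Hlf, a clock output factor, fell by 0.99 (adjusted p = 0.00106). Ciart, a clock repressor, was not well above background on either knockout female array and was at least 5.5-fold lower there. The labels do not state the time of day of sampling. The plot of lists sets these genes beside the 9.

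**Figure D3:**
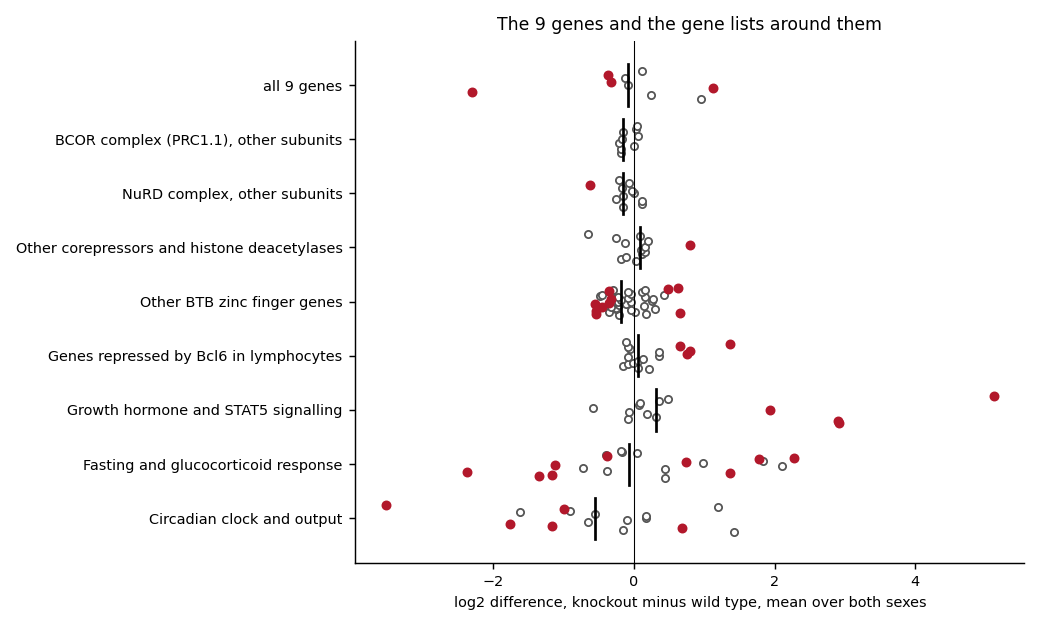
Log2 difference, knockout minus wild type, mean over both sexes, for each gene tested of the 9 genes and of the lists around them: each point is 1 gene, filled where the adjusted p was under 0.05, and each bar the median of a list. Of the genes shown, Ghr, Prlr and Cux2 lie farthest to the right.

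The calls for the 9 genes rest on 2 arrays a group, so each array was left out in turn. The differences kept their sign for Zbtb16, Bcor, Tbl1x and Ncor1 in all 8 fits of each knockout comparison. Bcl6, Bcl6b, Hdac3 and Bcorl1 did not keep it in at least 1 comparison, none of which had been called.

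**Figure D4:**
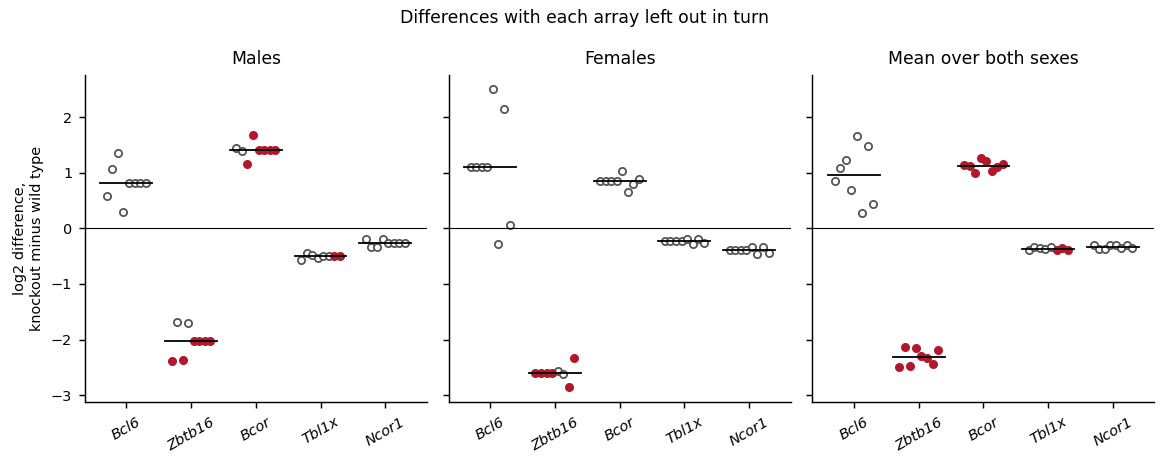
Log2 difference, knockout minus wild type, of Bcl6, Zbtb16, Bcor, Tbl1x and Ncor1 in males, in females and as the mean over both sexes, with all 8 arrays (line) and with each array left out in turn (points, filled where the adjusted p was under 0.05). Zbtb16 stays below 0 and Bcor above it, whereas Bcl6 in females moves between -0.29 and 2.50.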

How the data were processed

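Total RNA from whole liver was hybridised to Agilent arrays with the Cy3 dye alone. The deposited intensity columns used here are background-subtracted processed signals of Feature Extraction 11.5.1.1, per the file headers, and median intensities of spot and background. Version 9.1.3.1 stands in the submitters' processing notes. The deposited value table holds the authors' log2 values, which matched the log2 of the processed signal minus a constant per array within 0.01 for 100% of probes. It was used as an alternative, its direction and scale following the scanner values.

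Control spots and 55 to 139 outlier spots per array were left out. Spots of a probe were averaged, giving 56605 probes, of which 32989 had 1 symbol through RefSeq accessions (names only, GRCm38.p6) and 23616 none. The array grid is annotated on mm9. Each array's 75th percentile was subtracted from log2 values. Kept were 33580 probes that read well above background on each array of 1 or more groups, and of several probes the one with the highest mean stood for the gene. The 8 arrays were fitted together with 4 group means (limma 3.58.1, R 4.3.3; 4 residual and 2.07 prior degrees of freedom, median SE 0.162) for 6 contrasts, tested on simulated data first. Tables were made with pandas 2.3.3 and numpy 2.4.6 under Python 3.11.15, and plots with matplotlib 3.10.9. The files hold no mean spot signals, so the normexp alternative (offset 50) used median signals.

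Genes named from lists are up to 4 per knockout comparison with the smallest adjusted p past the threshold, with Hdac1 and Hdac2 always, and the 5 genes most like a member. Some genes that the rule names are not reported here. Hic1 and Hic2 were chosen after their values were seen. The members and lists were chosen with earlier results of these data known. Same-numbered arrays did not deviate together (correlations of deviations -0.002 to 0.102), so replicate numbers were not taken as pairs.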

Additional observations from a re-analysis of the deposited data

Results flagged for a closer look

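The effect of the knockout on Cux2, a factor of the growth hormone and STAT5 list, differed between the sexes in a test of the difference itself: the interaction was 6.93 on the log2 scale (limma, adjusted p = 0.0102). Neither wild-type male array was well above background for Cux2, so the size is set in part by values near background.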

How the results depend on the processing

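A total of 10 other fits and 8 with an array left out were run for the 9 genes. Of 954 values of single genes, 894 kept direction and side of the threshold, 31 lost a call, 3 gained one and 26 changed sign, all of uncalled values. The 26 include these values outside the fits with an array left out. Ncor1, males minus females in knockout, was 0.093 with normexp and 0.098 after averaging the probes of each gene. With averaged probes, Mta3 was -0.047 for knockout minus wild type in males and -0.12 for males minus females in knockout, and Hdac3 was -0.0027 for the last. The Bcorl1 interaction was -0.0016 with the authors' value table.

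Counts of the 9 genes called: in males 1 with only the 4 arrays compared (3 as reported), in females 3 with normexp and 2 with the mean of probes (1 as reported), and over both sexes 2 with no filter on dim probes (4 as reported). The male call of Tbl1x was also lost with no filter on dim probes (limma, adjusted p = 0.108) and with the mean of probes (0.0536). Counts over all features moved with normexp (2618 in females, 10 between sexes in knockout, 623 in wild type, 80 for the interaction) and with no filter (1229 in males, 529 in females, 2634 over both sexes, 92 between sexes in wild type, 11 for the interaction). With probes well above background on all 8 arrays there were 1 between sexes in knockout and 32 for the interaction, with array weights 1045 in females and 137 between sexes in wild type, and with only the 4 arrays compared 367 in females, 11 between sexes in knockout and 43 in wild type. The replicate block gave 25 for the interaction, against 53 without it, and changed no call of the 9 genes.

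With each array left out in turn (a lone array is then assumed to vary like the other groups), 0 to 3 of the 9 were called in males, 0 to 1 in females and 2 to 3 over both sexes. Over all features these counts were 812 to 3147 in males, 407 to 1636 in females, 2567 to 5295 over both sexes, 9 to 20 between sexes in knockout, 96 to 488 in wild type and 0 to 118 for the interaction. Uncalled values that changed sign ranged for Bcl6 from -0.29 to 2.50 in females, -1.68 to 1.11 for the interaction and -0.16 to 2.62 between sexes in knockout. For Hdac3 they ranged from -0.25 to 0.11 in males, -0.26 to 0.10 between sexes in wild type and -0.058 to 0.31 for the interaction. For Bcorl1 the ranges were -0.15 to 0.18 for the interaction, -0.13 to 0.21 between sexes in wild type and -0.27 to 0.071 in females. The rest were Bcl6b in females (-0.21 to 0.29), and between sexes in knockout Ncor1 (-0.084 to 0.054) and Bcor (-0.22 to 0.15). Causes were not tested. The number of arrays limits what can be seen.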
